A study of Mus musculus with 18 samples.

Results

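The secreted Wnt antagonists are 8 genes, Sfrp1, Sfrp2, Sfrp4, Sfrp5, Frzb, Dkk2, Dkk3 and Wif1, taken by symbol from the 23238 distinct gene symbols of the count tables of 18 mouse libraries. The libraries came from adult C57BL/6J mice, and the cells were sorted by FACS from the small intestine. Intestinal stromal cells (IntSCs) labelled PDGFRb+-CreERT2-Tomato+ formed the WT IntSC group (n = 6), and those in which Lats1f/f and Lats2 f/f alleles were added to that genotype formed the KO IntSC group (n = 5). Lacteals are the lymphatic capillaries inside villi, and their lymphatic endothelial cells (LECs) carried the same 2 genotype labels (WT LEC with n = 4 and KO LEC with n = 3). By these labels the control mice also carried the tamoxifen-inducible Cre and the tdTomato reporter. The paper likewise names reporter mice with this Cre as the controls of the sequenced IntSCs and LECs. Its general definition of WT mice was littermates with floxed alleles and without Cre. The Cre was driven by the Pdgfrb promoter, so the deletion was directed at PDGFRb+ fibroblasts, smooth muscle cells and pericytes together and not at the LECs. The comparisons ask how the antagonists differed between genotypes in IntSCs, between genotypes in LECs whose stroma was the target, and between the 2 cell types.

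Wnt proteins are secreted ligands that bind Frizzled receptors together with the co-receptors Lrp5 or Lrp6, and the canonical branch stabilises β-catenin, which then acts with TCF/LEF factors on target genes. Secreted Frizzled-related proteins (the Sfrp genes and Frzb) and Wif1 bind Wnt ligands outside the cell, whereas Dickkopf proteins such as Dkk2 act at Lrp5 and Lrp6, with Kremen proteins as partners. In the intestine, mesenchymal cells supply both Wnt ligands and their antagonists to the epithelium, and signalling is strongest around the crypt base. Lats1 and Lats2 are the kinases of the Hippo pathway that restrain the coactivators YAP and TAZ, which bind DNA through TEAD factors.

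All 8 genes are protein-coding in the GENCODE vM21 annotation of GRCm38. Sfrp1 lies at chr8:23411502-23449632 on the + strand with 3 exons and Frzb at chr2:80411970-80447625 on the − strand with 6 exons. The 2 Dickkopf genes are Dkk2 at chr3:132085292-132180304 on the + strand with 4 exons and Dkk3 at chr7:112116017-112159057 on the − strand with 8 exons. Wif1 lies at chr10:121033960-121100650 on the + strand with 10 exons. The remaining 3 genes are Sfrp2 at chr3:83766321-83774316 on the + strand, Sfrp4 at chr13:19623104-19632994 on the + strand and Sfrp5 at chr19:42197971-42202252 on the − strand.

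Promoters, from 250 bases before to 50 bases after the start of the gene, were matched for 5 of the 8 genes in RefSeq (GRCm38.p6). The start is that of RefSeq, which for Frzb and Wif1 differs from the GENCODE start. They were searched on both strands for CATTCC, the half-site of TEAD factors, and for CTTTG, the core of the TCF/LEF site. The letters of these motifs do not overlap each other. No CATTCC was found in any of the 5 promoters, and 14.7% of 32851 mouse promoters of the same length hold it. One CTTTG was found in each of Frzb, Dkk2 and Wif1 and none in Sfrp2 and Sfrp5, and 53.9% of all promoters hold it. The promoters of Frzb and Dkk2 are shown because the KO IntSC means of these genes lay on opposite sides of the WT means. Each is written 5′ to 3′ on the strand of the gene, and capitals mark the CTTTG match, which reads CAAAG where it lies on the opposite strand. The Frzb promoter is chr2:80447347-80447646 on the − strand, with the match from base 157. The Dkk2 promoter is chr3:132085042-132085341 on the + strand, with the match from base 171.
Frzb: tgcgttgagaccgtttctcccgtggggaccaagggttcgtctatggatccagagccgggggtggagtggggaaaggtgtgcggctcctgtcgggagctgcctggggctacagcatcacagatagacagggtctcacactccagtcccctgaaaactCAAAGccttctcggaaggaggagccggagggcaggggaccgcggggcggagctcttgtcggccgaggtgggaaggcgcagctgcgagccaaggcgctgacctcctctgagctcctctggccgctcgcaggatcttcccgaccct
Dkk2: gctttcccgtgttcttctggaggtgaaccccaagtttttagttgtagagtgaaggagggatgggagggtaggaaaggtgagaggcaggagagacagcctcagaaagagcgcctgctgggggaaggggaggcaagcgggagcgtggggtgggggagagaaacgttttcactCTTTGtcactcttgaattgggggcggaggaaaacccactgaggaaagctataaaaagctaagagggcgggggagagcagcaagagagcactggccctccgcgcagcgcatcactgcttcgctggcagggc

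The total count per library was 5361250 to 7971443 in WT IntSCs, 6485735 to 8095271 in KO IntSCs, 7464241 to 10549233 in WT LECs and 6900493 to 8914526 in KO LECs. Values below are CPM, the counts scaled to the size of their library, and 3 counts in 1 library, taken as the floor, were 0.281 to 0.632 CPM. Such floors cover counting error only, since reads without molecular identifiers are not independent molecules. Lats1 was 0 to 30.1 CPM in WT IntSCs and 12.9 to 21.2 in KO IntSCs, and Lats2 was 41.5 to 113 CPM and 80.0 to 130 CPM. In LECs Lats1 was 3.28 to 13.5 CPM in WT and 6.70 to 14.97 in KO, and Lats2 was 72.1 to 144 and 13.7 to 126. The reads lie at the 3′ ends of transcripts, and whether they cover the deleted exons was not checked. Neither gene separated the IntSC libraries labelled KO from WT, since the ranges overlapped, and the cause was not tested. Genotype directions below therefore refer to the libraries labelled KO. The summed level of 9 stromal markers was 12086 to 17333 CPM in WT IntSCs, 8004 to 13150 in KO IntSCs, 643 to 2236 in WT LECs and 320 to 539 in KO LECs. The summed level of 10 lymphatic endothelial markers was 254 to 428, 460 to 546, 9333 to 13494 and 10630 to 15535 CPM in the same order. WT LEC 1 stood apart with 2236 CPM of stromal markers, against 643 to 684 in the other 3 WT LEC libraries.

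The antagonists were read mainly in the IntSC libraries. Over the 11 IntSC libraries 7 of the 8 genes had at least 1 read and 4 of them, Sfrp1, Frzb, Dkk2 and Dkk3, had reads in every library. Over the 7 LEC libraries 4 of the 8 had at least 1 read, and only Sfrp1 and Frzb had reads in every library. Sfrp4 had 0 reads in all 18 libraries, so no level above the floor was detectable at this depth.

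**Figure D1:**
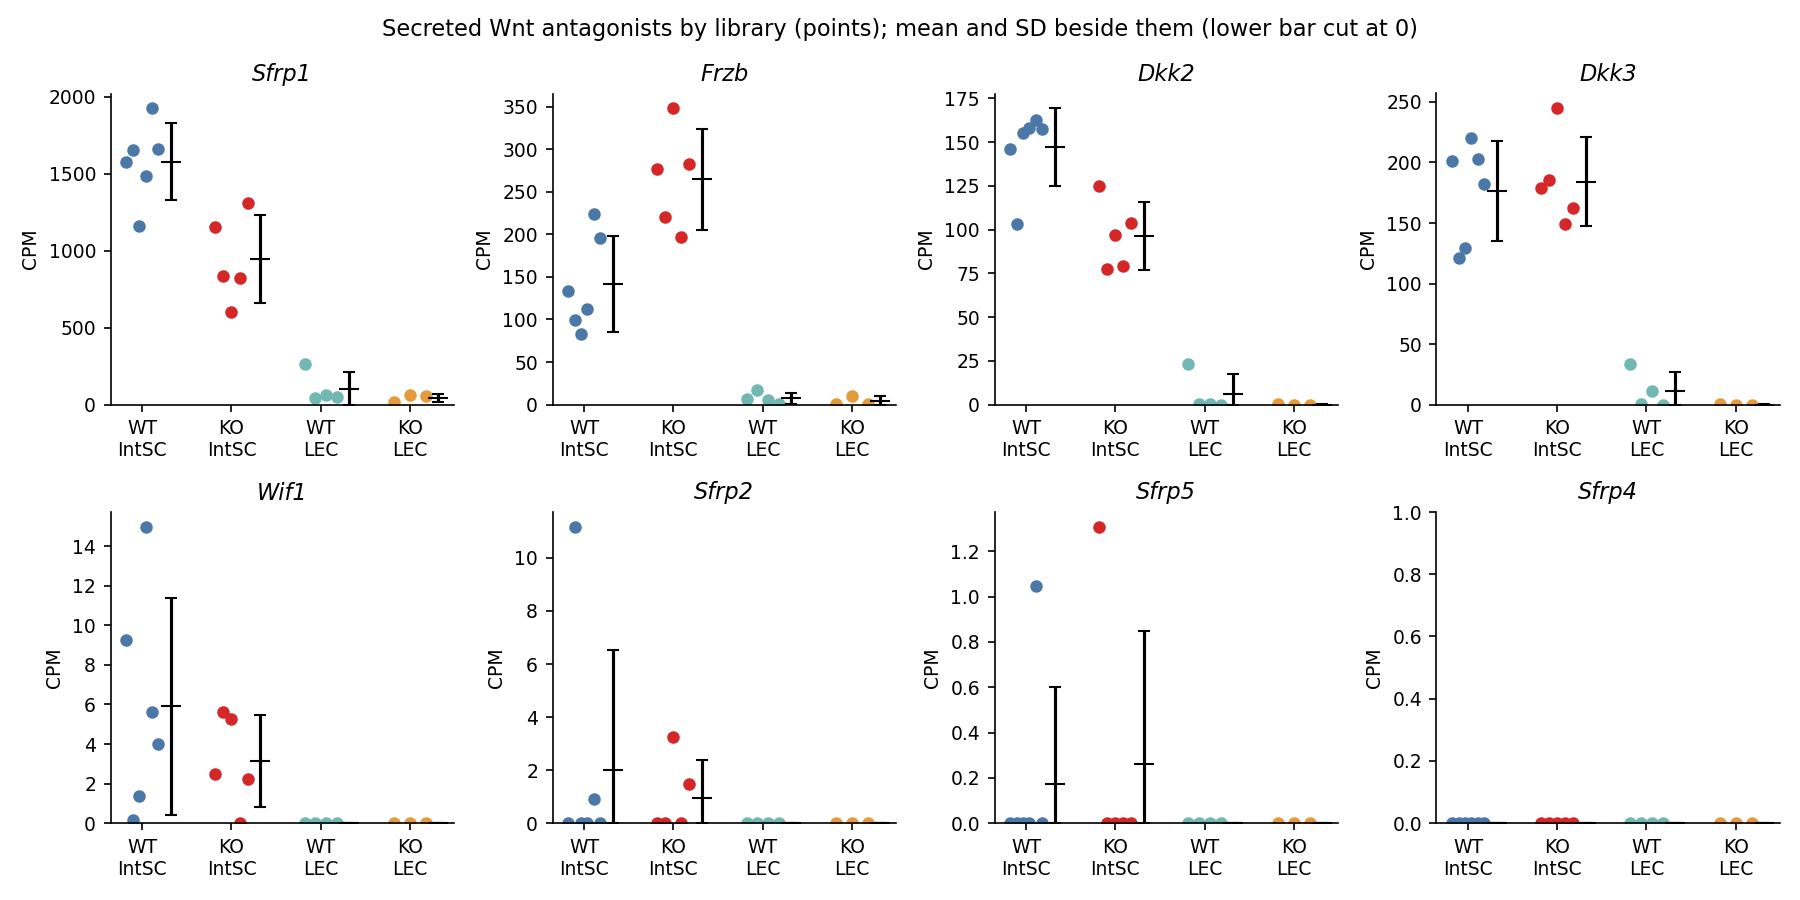
CPM of the 8 secreted Wnt antagonists (vertical axes, linear, a scale for each gene) in the 18 libraries of the 4 groups. Points are libraries and the bar beside each group is the mean ± SD. Sfrp1 and Dkk2 were lower and Frzb higher in most KO IntSC libraries, and the LEC libraries lie below every IntSC library for these genes and for Dkk3.

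Sfrp1, which encodes the Frizzled-related protein that sequesters Wnt ligands in many mesenchymal tissues, was 1163, 1485, 1573, 1657, 1662 and 1924 CPM in the 6 WT IntSC libraries. In the 5 KO IntSC libraries it was 601, 823, 837, 1156 and 1309 CPM. Only KO IntSC 5, at 1309 CPM, reached into the WT range, and the other 4 KO libraries were below every WT library. The mean was 1577 ± 251 CPM (SD, n = 6) in WT and 945 ± 284 CPM (SD, n = 5) in KO, and the log2 fold change was −0.74 ± 0.19 (SE, 95% interval −1.13 to −0.35). The edgeR quasi-likelihood test over all genes gave an adjusted p = 0.0528 after Benjamini-Hochberg adjustment, which is just outside the threshold of 0.05.

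Frzb, another Frizzled-related Wnt-binding protein, lay on the other side. It was 83.0, 99.4, 113, 134, 196 and 224 CPM in WT IntSCs and 196, 220, 277, 282 and 348 CPM in KO IntSCs. KO IntSC 1, 3 and 5 were above every WT library, while KO IntSC 2 and 4 fell within the range of WT IntSC 5 and 6, the highest WT libraries. The means were 142 ± 56.5 CPM (SD, n = 6) and 265 ± 59.2 CPM (SD, n = 5), and the log2 fold change was 0.90 ± 0.24 (SE, 95% interval 0.40 to 1.40, edgeR adjusted p = 0.0649).

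Dkk2, the Dickkopf that binds Lrp5 and Lrp6, was 103, 146, 155, 157, 158 and 163 CPM in WT IntSCs. In KO IntSCs it was 77.7, 79.0, 96.7, 104 and 125 CPM. WT IntSC 2, at 103 CPM, stood below its group, and 3 of the 5 KO libraries were below it while all 5 were below the other 5 WT libraries. The log2 fold change was −0.61 ± 0.19 (SE, 95% interval −1.01 to −0.21, edgeR adjusted p = 0.151), from means of 147 ± 22.1 CPM (SD, n = 6) to 96.3 ± 19.4 CPM (SD, n = 5). Dkk3, a divergent Dickkopf that is not a classical Lrp5 or Lrp6 inhibitor, was 121, 130, 182, 201, 203 and 220 CPM in WT and 149, 162, 179, 186 and 245 CPM in KO. The 2 groups overlapped almost entirely for Dkk3, with a log2 difference of 0.07 ± 0.20 (SE, 95% interval −0.35 to 0.48, edgeR adjusted p = 0.978), an interval that leaves out a change of 1 log2 unit in either direction.

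Wif1, which binds Wnt ligands through a domain unrelated to the Frizzled-related proteins, was low and uneven. It was 0.172, 1.35, 4.005, 5.62, 9.28 and 14.98 CPM in WT IntSCs and 0, 2.26, 2.48, 5.28 and 5.62 CPM in KO IntSCs. The ranges overlapped and the interval of the log2 fold change, −3.32 to 1.497 around −0.91, was too wide to show a difference (edgeR adjusted p = 0.916). Sfrp2 and Sfrp5, both Frizzled-related, did not pass the filter on low counts. Sfrp2 had reads in 2 of 6 WT and 2 of 5 KO IntSC libraries, with 11.2 CPM in WT IntSC 2 and at most 3.24 CPM in any other. Sfrp5 had reads in 1 WT library (1.05 CPM) and 1 KO library (1.31 CPM).

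Of the 8 genes, 5 passed the filter in the IntSC comparison and 0 of these passed the threshold, where 1.47% of the 12421 genes tested did. At an unadjusted p under 0.05 the count was 3 of 5 (Sfrp1, Frzb and Dkk2) against 9.81% of all genes. With all 4 groups in 1 fit these 3 genes had an edgeR adjusted p = 1, and 0 of 6 antagonists had an unadjusted p under 0.05. None of the 5 was without overlap between the groups, as 2.83% of all genes were. Sfrp1 and Frzb passed with DESeq2 (adjusted p = 0.00634 and 0.0181, with 3.15% of all genes called) and with limma-voom (0.026 and 0.0348, with 1.8% called). Leaving out 1 library changed the edgeR adjusted p in both directions. Sfrp1 reached 0.0414 without WT IntSC 3 and 0.0323 without KO IntSC 5, and Frzb reached 0.0261 without WT IntSC 5 and 0.039 without WT IntSC 6. Each gene passed in only 2 of the 11 fits of this kind. In the others it stayed outside the threshold, up to 0.152 for Sfrp1 (without KO IntSC 2) and 0.208 for Frzb (without KO IntSC 3). The sign of the Sfrp1, Frzb, Dkk2 and Wif1 differences was the same in all 20 alternatives, whereas that of Dkk3 turned when WT IntSC 2, WT IntSC 3 or KO IntSC 3 was left out (log2 fold change −0.02, −0.0061 and −0.058). The study describes its groups as mice pooled over experiments, but the labels tie no library to an animal or an experiment, so these p-values measure the spread between the libraries, which may be technical.

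**Figure D2:**
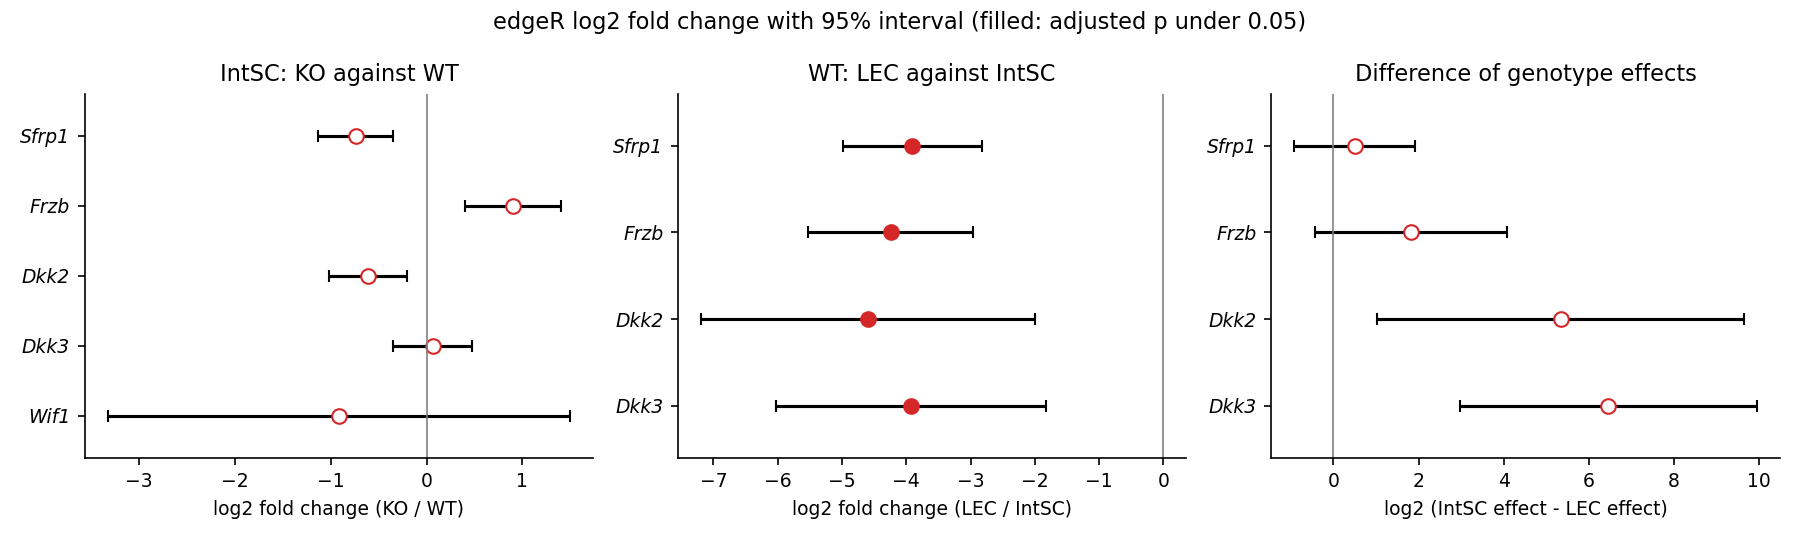
edgeR log2 fold changes (horizontal axes) of the antagonists with their 95% intervals for KO against WT in IntSCs, for LECs against IntSCs in WT, and for the difference of the genotype effects between cell types. Filled points passed an adjusted p of 0.05. In IntSCs the intervals of Sfrp1, Frzb and Dkk2 leave out 0 but no point is filled, and Wif1 and Sfrp2 are not drawn where all LEC libraries were at 0.

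Markers of several cell classes ranged differently between the genotypes beside these genes. The stromal sum had a lower range in KO IntSCs, as given above, with 2 of its 9 markers (Col3a1 and Col6a2) past the threshold as lower. The summed 5 markers of subepithelial fibroblasts were 107 to 247 CPM in WT and 60.6 to 94.5 in KO, with 0 of 5 past the threshold, and the 5 markers of submucosal fibroblasts 2681 to 3247 and 1620 to 2800, with Cd34 lower. Smooth muscle markers summed to 1037 to 1802 CPM in WT and 1252 to 2336 in KO, and Paneth cell markers to 0.152 to 6.32 and 25.3 to 58.2, with Mmp7 and Pnliprp2 at 0 in WT and Lyz1 past the threshold as higher in KO. Taken as a percent of the stromal sum of the same library, Sfrp1 was 8.34 to 13.8% in WT and 5.83 to 11.5% in KO. Dkk2 was 0.597 to 1.30% and 0.601 to 1.24%, so both overlapped more than on the CPM scale. The stromal sum was itself lower on average in KO, and dividing by it makes a decrease smaller and an increase larger. On the same scale Frzb was 0.574 to 1.62% in WT and 1.49 to 3.38% in KO, with 1 KO library inside the WT range, and Dkk3 was 0.700 to 1.64% and 1.14 to 2.37%. The part of these markers in the results was not tested, and in bulk samples fewer cells of a type and less RNA per cell cannot be told apart.

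The antagonists did not share 1 pattern over the 11 IntSC libraries. As the root mean square distance between centred log2(CPM + 1) values, Sfrp1 and Dkk2 were 0.346 apart, Dkk2 and Dkk3 0.444, Frzb and Dkk3 0.545, Sfrp1 and Dkk3 0.623, Frzb and Dkk2 0.867 and Sfrp1 and Frzb 0.969. Spread between WT libraries was smallest for Dkk2 and Sfrp1, with a coefficient of variation of 15.1% and 15.9%, against 23.4% for Dkk3, 39.9% for Frzb and 93.1% for Wif1. Among 10569 genes of at least 5 CPM on average, those nearest to Frzb were Hif1a (0.228), Limch1 (0.296) and Dcbld2 (0.299). The nearest to Dkk2 were Tada2b (0.154), 1810043H04Rik (0.162) and Srp68 (0.203). Sfrp1 had Zbtb12 (0.257), Prorsd1 (0.259) and Pmepa1 (0.259) as its nearest genes, and Dkk3 had Eif4g2 (0.169), Ppan (0.193) and Scaf8 (0.199). These distances describe the same 11 libraries, which also share the difference in stromal markers, and carry no test.

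In LECs the 5 antagonists tested were lower than in IntSCs. Sfrp1 was 42.1, 51.6, 63.3 and 262 CPM in WT LECs, and the highest value was that of WT LEC 1. Every WT LEC library was below every WT IntSC library, and the log2 fold change of WT LECs against WT IntSCs was −3.90 ± 0.50 (SE, edgeR adjusted p = 5.42e-05), or −4.91 without WT LEC 1 (adjusted p = 2.19e-08). Frzb was 1.30, 5.53, 6.18 and 17.0 CPM in WT LECs, also without overlap, and lay at −4.24 ± 0.60 on the log2 scale (SE, edgeR adjusted p = 0.000115), or −5.04 without WT LEC 2.

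Dkk2 was 0, 0.187, 0.370 and 23.5 CPM in WT LECs, and Dkk3 was 0.09996, 0.617, 11.3 and 33.9 CPM. For both genes WT LEC 1 held the highest value, and for Dkk2 the other 3 libraries were at or below the floor of 3 counts. The log2 fold change against WT IntSCs was −4.59 ± 1.21 (SE, edgeR adjusted p = 0.0143) for Dkk2, and −9.57 without WT LEC 1. For Dkk3 it was −3.92 ± 0.98 (SE, edgeR adjusted p = 0.0103), and −5.41 without WT LEC 1. Wif1 had 0 reads in every LEC library and was at least 76.6-fold higher in WT IntSCs, against a floor of 3 counts over the group (edgeR adjusted p = 0.0122). Without a filter on low counts the calls of Dkk2 (edgeR adjusted p = 0.086) and Dkk3 (0.0732) were lost, and without WT IntSC 5 Wif1 did not pass the filter.

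The 5 genes that passed the filter were all called lower in WT LECs, where 12.3% of 12203 genes were called in that direction. Dkk2, Dkk3 and Wif1 were too low in LECs to pass the filter there and entered this comparison through their level in IntSCs, so their count lends no support. The 5 did not overlap between the cell types, as 11.5% of all genes did not in that direction. For Dkk2, Dkk3 and Wif1 this count lends no support either. The lowest Wif1 value in WT IntSCs was 1 read in WT IntSC 2 (0.172 CPM), below the floor, against 0 in WT LECs.

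In the libraries labelled KO the 5 antagonists tested were also lower in LECs. Sfrp1 was 15.9, 55.7 and 61.2 CPM in KO LECs (log2 fold change against KO IntSCs −4.42 ± 0.50, SE; edgeR adjusted p = 0.000151), and Frzb was 0.279, 0.620 and 10.6 CPM (−6.07 ± 1.03, SE; edgeR adjusted p = 0.00199), or −9.13 without KO LEC 2. Dkk2 had 2 reads over the 3 KO LEC libraries and Dkk3 had 3, which made pooled CPM 1207 times (95% counting interval 334 to 9972) and 1547 times (529 to 7502) higher in KO IntSCs (edgeR adjusted p = 2.07e-05 and 2.9e-06). These intervals cover counting error only and leave out the spread between libraries, so they are too narrow. Wif1 was at least 26.8-fold higher in KO IntSCs (edgeR adjusted p = 0.044), and this call was lost when any library except KO IntSC 4 was left out (adjusted p = 0.0672 to 0.0887), with no filter (0.0676) and with a mean count of at least 10 (0.0538). All 5 genes that passed the filter were called lower, against 16.8% of 12758 genes, and all but Wif1 did not overlap, as 20.9% of all genes did not in that direction. Dkk2, Dkk3 and Wif1 again entered through their level in IntSCs, so the counts lend no support.

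The order of the group means was WT IntSC, KO IntSC, WT LEC and KO LEC for Sfrp1, Dkk2 and Wif1, with both LEC groups at 0 for Wif1. For Frzb and Dkk3 KO IntSC stood before WT IntSC. Within each genotype the difference between IntSCs and LECs passed the edgeR test for Sfrp1 and Frzb. Dkk2, Dkk3 and Wif1 passed too but entered through their level in IntSCs, so their passes lend no support. The Wif1 call in KO held in only 1 of the 8 fits that left out 1 library. A step from KO IntSC to WT LEC crosses genotypes and was not tested. The steps between genotypes within a cell type did not pass in the edgeR fits of the 2 groups compared. In LECs Dkk2, Dkk3 and Wif1 did not pass the filter of those fits.

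**Figure D3:**
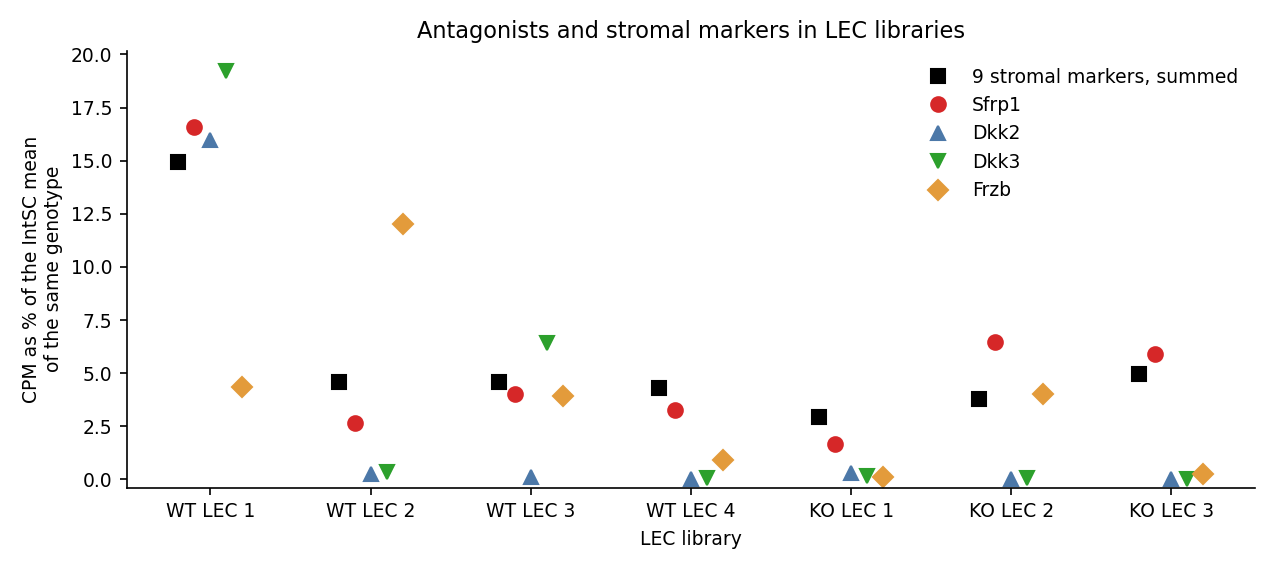
CPM of 4 antagonists and of the 9 summed stromal markers in each LEC library (horizontal axis), as a percent of the IntSC mean of the same genotype (vertical axis, linear). In WT LEC 1 the stromal sum, Sfrp1, Dkk2 and Dkk3 all lie between 14.96 and 19.2%, while in the other LEC libraries the stromal sum lies between 2.95 and 4.96%.

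The antagonists in LEC libraries were set beside the stromal markers of the same libraries. In WT LEC 1 the 9 stromal markers summed to 14.96% of the WT IntSC mean, and Sfrp1 was at 16.6%, Dkk2 at 16.0% and Dkk3 at 19.2% of theirs, while Frzb was at 4.37%. In WT LEC 2, 3 and 4 the stromal sum was at 4.30 to 4.57% and Sfrp1 at 2.67 to 4.01%, whereas Dkk2 was at 0 to 0.252%. Frzb and Dkk3 did not follow that sum in every library, since Frzb was at 12.03% in WT LEC 2 and Dkk3 at 6.44% in WT LEC 3. In KO LECs the stromal sum was at 2.95 to 4.96%, Sfrp1 at 1.68 to 6.48% and Dkk2 at 0 to 0.290%. All 9 stromal markers had reads in every LEC library, and whether the antagonist reads came from LECs or from stromal RNA in these libraries was not tested.

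Between genotypes in LECs, 2 of the 8 genes passed the filter and 0 passed the threshold, where 0.0658% of 10639 genes did. At an unadjusted p under 0.05 the count was also 0, against 7.87% of all genes, and DESeq2 and limma-voom also called 0 of the 2 (2.98% and 0.113% of all genes). The log2 fold change of KO against WT was −1.16 ± 0.69 (SE, 95% interval −2.64 to 0.32, edgeR adjusted p = 0.824) for Sfrp1, and −0.16 without WT LEC 1. For Frzb it was −0.89 ± 2.07 (SE, 95% interval −5.34 to 3.56, edgeR adjusted p = 1), or −3.95 without KO LEC 2. Dkk3, which did not pass the filter, was 0, 0.103 and 0.279 CPM in KO LECs, within or below the range of the WT values above. The LEC groups also differed in the summed Paneth cell markers, at 0 to 0.740 CPM in WT and 11.8 to 62.0 CPM in KO. The part of these markers in the LEC comparison was not tested.

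The difference between the genotype effects in IntSCs and in LECs was tested in a fit of all 18 libraries, where 0 of 6 antagonists passed and 1.7% of 14015 genes did. At an unadjusted p under 0.05 the count was 2 (Dkk2 and Dkk3) against 15.8%, DESeq2 called 1 (Dkk3, adjusted p = 0.0011, with 7.39% of all genes) and limma-voom 0 (1.02%). Neither Dkk2 nor Dkk3 passed the filter in LECs and both entered through their level in IntSCs, so these counts lend no support. The log2 difference was 6.45 ± 1.65 (SE, 95% interval 2.96 to 9.94, edgeR adjusted p = 0.0586) for Dkk3, beside a median of 0.24 over all genes. Dkk3 passed without WT LEC 2 (edgeR adjusted p = 0.0184) or WT LEC 4 (0.0034), and with genes of a mean count of at least 10 (0.0473). WT LEC 2 and WT LEC 4 held the lowest Dkk3 values of the WT LECs (0.617 and 0.09996 CPM), so leaving either out raises the WT LEC mean. These passes lend no support either. For Dkk2 the difference was 5.34 ± 2.03 (SE, 95% interval 1.03 to 9.64, edgeR adjusted p = 0.202), and 0.36 without WT LEC 1. For Frzb it was 1.83 ± 1.07 (SE, edgeR adjusted p = 0.455) and passed at 4.89 without KO LEC 2 (adjusted p = 0.00408), and for Sfrp1 it was 0.50 ± 0.67 (SE, edgeR adjusted p = 0.868) and −0.50 without WT LEC 1. Sfrp2 and Wif1, the other 2 genes tested, were at 0 in all LEC libraries.

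The rest of the Wnt pathway was followed in 6 lists of 72 genes. In IntSCs 41 were tested, of which 1 was called higher and 1 lower in KO, where 1.47% of all genes tested were called. The median log2 fold change was 0.14 against 0.0026 over all genes tested. Fzd2, a Frizzled receptor, was 136 to 184 CPM in WT IntSCs with a median of 152, and 235, 296, 317, 326 and 369 CPM in KO IntSCs, without overlap. It rose by 0.97 ± 0.17 on the log2 scale (SE, edgeR adjusted p = 0.00301), a call that was lost with all 4 groups in 1 fit (adjusted p = 0.513). Ccnd1, the cyclin D1 gene and a Wnt target in several tissues, was 191 to 486 CPM in WT IntSCs with a median of 339, and 42.4, 42.4, 81.5, 91.9 and 181 CPM in KO IntSCs. All KO libraries were below all WT libraries, and Ccnd1 fell by 1.97 ± 0.36 on the log2 scale (SE, edgeR adjusted p = 0.00859). Both Fzd2 and Ccnd1 were without overlap, as 2.83% of all genes tested were. Axin2, a feedback inhibitor that canonical Wnt signalling induces, had a log2 fold change of −0.0026 in the same comparison (edgeR adjusted p = 0.999). It was 7.18 ± 5.74 CPM (SD, n = 6) in WT and 7.21 ± 6.06 CPM (SD, n = 5) in KO IntSCs, a spread too wide to exclude a change. Axin2 was named after its value was seen and does not stand for its list. Of the 12 feedback and target genes tested, 6 had a log2 fold change above 0. Whether Wnt signalling differed between the genotypes was not tested.

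By role, 1 of 15 receptor genes tested in IntSCs (Fzd2) and 1 of 12 feedback and target genes (Ccnd1) passed the threshold, where 1.47% of all genes did. None of the 5 ligands, 4 R-spondin and Lgr genes, 4 ligand secretion genes and 1 other secreted inhibitor tested passed it (edgeR). Among these, 1 ligand and 1 secretion gene had an unadjusted p under 0.05, as 9.81% of all genes did. The median log2 fold change was −0.13 for ligands, −0.68 for R-spondins and Lgr receptors, 0.31 for receptors, 0.27 for secretion and 0.03 for targets. Each stands beside 5 antagonists with values from −0.91 to 0.90.

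**Figure D4:**
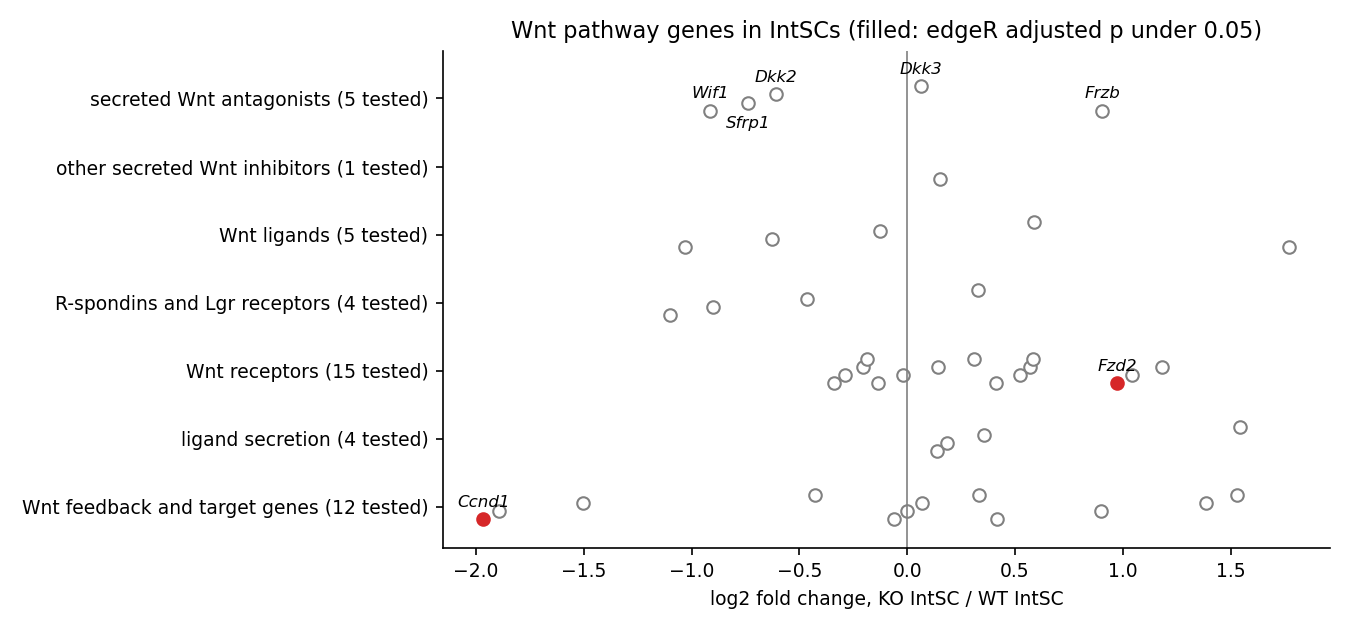
Log2 fold changes of KO against WT IntSCs (horizontal axis) for each gene tested of the antagonists and of the 6 Wnt pathway lists (rows). Filled points passed an edgeR adjusted p of 0.05, which are Fzd2 among the receptors and Ccnd1 among the feedback and target genes.

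Between genotypes in LECs 0 of 23 pathway genes tested passed with edgeR (0.0658% of all genes did), and 5 had an unadjusted p under 0.05 (7.87% of all genes). In the difference of genotype effects 1 of 47 passed, where 1.7% of all genes did. It was Fzd5, a Frizzled receptor, at 6.19 ± 1.38 on the log2 scale (SE, edgeR adjusted p = 0.019). Fzd5 was 5.71, 9.75, 11.2 and 16.6 CPM in WT LECs and 0, 0 and 0.413 CPM in KO LECs, while it was 9.09 to 45.0 CPM in WT IntSCs and 16.7 to 26.5 CPM in KO IntSCs.

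Between cell types the antagonists stood beside ligands of both compartments. Of 40 pathway genes tested in WT, 4 were called higher and 11 lower in LECs, where 10.3% of all genes were higher and 12.3% lower. Wnt2 was 309 ± 23.3 CPM (SD, n = 4) in WT LECs and 1.49 ± 1.38 CPM (SD, n = 6) in WT IntSCs (log2 fold change 7.68 ± 0.62, SE; edgeR adjusted p = 6.76e-07), and Wnt9b was 23.6 ± 6.32 and 0.0677 ± 0.166 CPM (edgeR adjusted p = 0.000383). Other ligands were higher in IntSCs, since Wnt2b was 183 ± 38.6 CPM (SD, n = 6) in WT IntSCs and 8.31 ± 12.03 CPM (SD, n = 4) in WT LECs (edgeR adjusted p = 0.00359), and Wnt4 was 42.2 ± 26.8 and 0.179 ± 0.226 CPM (edgeR adjusted p = 4.74e-05). Igfbp4, an IGF-binding protein that can also inhibit canonical Wnt signalling, was the 1 other secreted inhibitor tested and was higher in WT LECs, at 2375 ± 622 CPM (SD, n = 4) against 1048 ± 177 CPM (SD, n = 6), at 1.19 ± 0.20 on the log2 scale (SE, edgeR adjusted p = 0.000486). In KO 44 were tested, with 5 higher (9.11% of all genes) and 18 lower (16.8%) in LECs. Wnt2 was higher there (log2 fold change 6.77 ± 0.90, SE; edgeR adjusted p = 0.000413) and Wnt5a lower (−9.33 ± 1.11, SE; edgeR adjusted p = 0.000212). Wnt5a had 1 read over the KO LEC libraries, under the floor of 3 counts, so its fold and SE rest on that read. Wnt9b had 3 reads over the WT IntSC libraries and Wnt4 had 7 over the WT LEC libraries. Each of Wnt4, Wnt5a and Wnt9b thus entered through its level in the other cell type, and its call lends no support.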

How the data were processed

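RNA of 18 libraries was prepared with the Lexogen QuantSeq kit, which reads the 3′ ends of transcripts, and sequenced on an Illumina NextSeq. Per the study's methods the cells were depleted of other classes and sorted by FACS. The authors deposited raw counts of reads per gene symbol, 1 table of 23282 rows per library. TopHat and Cufflinks are given in the methods, and Bowtie2, edgeR and mm10 in the submitters' processing notes. The counting program and the annotation are not given in the sources used here. The 35 symbols on more than 1 row were summed.

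Differences were tested on the counts in R 4.3.3 by edgeR 4.0.16 (TMM factors, filterByExpr, robust quasi-likelihood fit, Benjamini-Hochberg adjustment, threshold 0.05), with the 2 groups compared in each fit and all 4 for the interaction. The steps were tested on simulated data. CPM used the TMM factors of all 18 libraries. CPM levels were not compared between genes. Standard errors came from the F statistic. Depth was 5361250 to 10549233 counts per library. Sample titles gave the groups and replicate numbers. Alternatives were RLE and upper-quartile factors, DESeq2 1.42.0, limma-voom 3.58.1, 2 other filters, a fold change limit, a replicate block, all groups in 1 fit and each library left out. The genes named were the 8 antagonists, Lats1 and Lats2, pathway genes past the threshold between genotypes or in the interaction, the 2 of smallest p per list and direction between cell types (some of them described) and the 3 genes nearest in pattern. Axin2 was named after its value was seen. The members and lists were chosen with earlier results of these data known. Samples with the same number did not deviate together (highest correlation 0.0559), so numbers were not taken as pairs. Replicate libraries differed beyond sampling noise (chi-square per degree of freedom 30.1 to 139).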

Additional observations from a re-analysis of the deposited data

Results flagged for a closer look

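Across the antagonists, pathway genes named and marker sums, 63 groups of 4 to 10 libraries were examined for a library far from the rest of its group. In 14 of them 1 library stood apart. A chance rate of 1 in 20 would give 3.15 groups, but that rate does not hold for these values. A gene with reads in 1 library only of its group, as Sfrp5 had, is always set apart. Values of the same library are also not independent of each other. The 14 groups therefore cannot be weighed against chance.

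Among the antagonists in LECs, WT LEC 1 stood apart for Sfrp1 (262 CPM, against 42.1 to 63.3 in the other 3 libraries) and for Dkk2 (23.5 CPM, against 0 to 0.370). The same library stood apart for the summed stromal markers, at 2236 CPM against 643 to 684. The part of the stromal markers in those values was not tested.

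In IntSCs, WT IntSC 2 stood apart for Dkk2 on the low side (103 CPM, against 146 to 163) and for Sfrp2 on the high side (11.2 CPM, against 0 to 0.915). Sfrp5 was read in 1 library only of each genotype, WT IntSC 5 (1.05 CPM) and KO IntSC 1 (1.31 CPM), with 0 in the others.

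Of the pathway genes, Fzd2 stood apart in WT LEC 4 (18.8 CPM, against 5.52 to 7.28) and Fzd5 in WT IntSC 3 (45.0 CPM, against 9.09 to 20.1). Of the marker sums, epithelial markers stood apart in WT IntSC 6 (119.9 CPM), mesothelial markers in WT IntSC 3 (13.1 CPM), enteric glia markers in KO IntSC 3 (14.5 CPM), and leukocyte (25.8 CPM) and Paneth cell markers (0.740 CPM) in WT LEC 2. In KO LECs the Paneth cell markers were higher than in any WT LEC library, at 11.8 to 62.0 CPM.

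Fzd5 was the 1 pathway gene whose genotype effect differed between the cell types by the edgeR interaction test, at a log2 difference of 6.19 (adjusted p = 0.019 over all genes). Of all genes tested 1.7% passed that test.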

How the results depend on the processing

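In IntSCs 183 genes passed the threshold, 376 did with DESeq2, 27 with all 4 groups in 1 fit and 99 to 186 when 1 library was left out, with more than a 1.5-fold drop without WT IntSC 1 (121), KO IntSC 1 (105), KO IntSC 2 (101), KO IntSC 3 (99) or KO IntSC 5 (121). The count of antagonists went from 0 to 2 (Sfrp1 and Frzb) with DESeq2, limma-voom, no filter on low counts and the replicate block, and was 0 to 1 when 1 library was left out. In LECs 7 genes passed, 309 with DESeq2, 12 with limma-voom, 32 with no filter, 20 with a mean count of at least 10, 3 with the replicate block, 538 with all 4 groups in 1 fit and 0 to 16 when 1 library was left out. The count of antagonists there was 1 with all 4 groups in 1 fit (Dkk3, which entered that fit through its level in IntSCs) and 0 to 0 when 1 library was left out. In WT between cell types the antagonists called went from 5 to 3 with no filter (Dkk2 adjusted p = 0.086 and Dkk3 0.0732 with edgeR) and to 3 with the replicate block, and to 4 to 5 when 1 library was left out (Wif1 did not pass the filter without WT IntSC 5). DESeq2 gave no adjusted p for Dkk2. All genes called were 2763, 1596 with the replicate block and 2233 to 2889 when 1 library was left out. In KO they were 3302, 895 with the replicate block and 2557 to 3320 when 1 library was left out, with 4 to 5 antagonists. In the interaction 238 genes passed, 1023 with DESeq2, 143 with limma-voom, 16 with the replicate block and 161 to 461 when 1 library was left out. The antagonists there were 1 with DESeq2, 1 with a mean count of at least 10 and 0 to 1 when 1 library was left out. The sign of the Dkk3 difference in IntSCs turned without WT IntSC 2 (−0.02), WT IntSC 3 (−0.0061) or KO IntSC 3 (−0.058), with a range of −0.058 to 0.14 over the libraries left out, and that of the Sfrp1 interaction without WT LEC 1 (−0.50 to 0.81). The cause of these shifts was not tested.

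Under the replicate block Sfrp1 and Frzb in IntSCs had an edgeR adjusted p of 0.0315 and 0.0414, Dkk3 and Wif1 between WT cell types 0.0605 and 0.129, Wif1 between KO cell types 0.203 and Fzd5 in the interaction 0.47. The labels tie the numbers to no shared animal or day. With a pseudocount of 0.25 the third gene nearest to Sfrp1 became Cotl1 and that nearest to Dkk3 became Gdi2. In LECs Dkk2, Dkk3 and Wif1 lay near or below the floor of 3 counts in most libraries, which limits their genotype comparison there.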
